A study of Mus musculus with 21 samples.

Results

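Proteasome subunits were followed across single skeletal muscle fibers by taking every non-control array probe whose gene name is Psma, Psmb, Psmc, Psmd or Psme and a number. The search found 54 probes for 43 of the 35527 gene names of the array, printed as 63 spots, among the 55681 probes (59305 spots) of the array, and 53 of the 54 had enough signal to be tested, against 46925 probes of the whole array. The microarrays cover 21 myofibers of CD1 mice aged 3 months, each fiber on a single-colour Agilent mouse array of its own after amplification of its RNA. There were 11 type 1 myofibers, slow fibers from the soleus, and 10 type 2B myofibers, fast fibers from the extensor digitorum longus (EDL), all dissociated with collagenase. A clipped piece of each fiber was used to read its myosin heavy chain on a gel, and this set its type. No group was treated and none carries an engineered allele, and the sources used here differ on the sex of the mice. Each type came from 6 mice of 9 in all, and 3 mice gave both. All type 1 fibers are from soleus and all type 2B fibers from EDL, therefore fiber type and muscle cannot be told apart.

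The proteasome degrades proteins that carry ubiquitin chains, and in skeletal muscle it is a main route by which contractile proteins are lost during atrophy. Its 20S core is a stack of rings of alpha and beta subunits, with the proteolytic sites inside, on beta subunits. The 19S cap recognises ubiquitin, unfolds the substrate with a ring of ATPases and feeds it to the core, while alternative activators, PA28 and PA200, dock on the same core without ATP. Interferon exchanges the catalytic beta subunits for immune ones, which favours peptides for class I presentation.

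The arrays carry Psme4, which encodes PA200, with 2 probes that share no run longer than 6 bases and lie 45042 bases apart on the plus strand of chromosome 11 (mm9). These were the only proteasome probes called between the fiber types. Psme2, the beta subunit of PA28, has 3 probes, and 1 of them is annotated to a transcript of its pseudogene on another chromosome. The first 30 of the 60 bases of these probes, on the mm9 coordinates of the array files, are shown because the results on the activators turn on which transcript each probe reads:
Psme4 A_55_P2457912, chr11:30710953-30711012, plus strand: tatgtttagcaaaactggtagtctagaagc
Psme4 A_55_P1976007, chr11:30756055-30756114, plus strand: aggaagatctttttctacagcagtcaaaga
Psme2 A_55_P1996862, chr14:56206296-56206355, minus strand: cccgaagggtgaagaaaagccatcgatgta
Psme2 A_55_P2025611, chr14:56208888-56209346, minus strand: aatcttttccaggaggctgatgacttcctc
Psme2 (pseudogene transcript) A_55_P2025612, chr11:48759630-48759689, minus strand: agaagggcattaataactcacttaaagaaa
The accessions of 53 of the 54 probes matched a RefSeq gene of GRCm38.p6 under the same symbol, and the exception is the pseudogene probe of Psme2. No level of a probe is compared here with that of another probe, since probes differ in how brightly they hybridise.

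Values below are log2 of the processed signal, the background-subtracted brightness of a spot in scanner units, after quantile normalization between the 21 arrays. Differences are type 2B minus type 1 on this log2 scale, from limma with the mouse as a random block, and a probe was called when its Benjamini-Hochberg adjusted p over the 46925 tested probes was at or below 0.05. Fibers of a mouse are not independent animals, so means per mouse were compared as well, with an exact two-sided permutation test over the 924 ways to split 6 means against 6. Its smallest p is 0.0022, and the 3 mice with both types are counted in each. Between 41.2% and 79.8% of the spots of a type 1 array and between 38.7% and 74.6% of those of a type 2B array were well above background, and the number of fibers limits the precision of each difference.

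Myosin transcripts were compared with the fiber type labels. Myh7, the slow myosin, differed by -8.07 and Myh4, the type 2B myosin, by 11.63 (limma, adjusted p = 2.6e-09 and 5.4e-12). Myh2, the type 2A myosin, differed by -4.99 and Myh1, the type 2X myosin, by 5.42 (limma, adjusted p = 0.016 and 0.0030). Myh2 was well above background in 7 of 11 type 1 and 2 of 10 type 2B fibers, and Myh1 in 3 of 11 and 8 of 10. The fiber labelled type 1 as S6.4 went against its label for Myh7, with a signal of 9.22, nearer to the type 2B range of 6.78 to 7.84 than to the type 1 median of 15.8. For Myh4 every type 1 fiber, S6.4 among them, was at 8.61 or below, under the lowest type 2B fiber at 14.42. Myh2 spread from 1.73 to 15.22 among the type 1 fibers. Results on Psme4 are given with and without S6.4. The type 1 signals of the other probes include it, and it sets the highest type 1 signal of Psmb4, Psmc5 and Psme1. Of the cell type markers, Ckm, muscle creatine kinase, was higher in type 2B by 1.23, whereas the collagen Col3a1 was lower by 2.45 and the B cell marker Cd79a by 1.13 (limma, adjusted p = 0.0019, 0.0014 and 0.018). Without mouse 3, Ckm and Cd79a were not called (limma, adjusted p = 0.062 and 0.27), and on slide 1 alone Cd79a was at 0.15. Cd79a was well above background in 8 of 11 type 1 and 4 of 10 type 2B fibers. With another background correction it was at -0.25 and with the slide as a block at -0.92, called in neither (limma, adjusted p = 0.058 and 0.16). The number of called marker probes was 1 of 8 tested for leukocytes, 0 of 5 for endothelium, 1 of 3 for connective tissue and 0 of 2 for satellite cells (limma). Over all tested probes the share called was 7.57%. For endothelium and satellite cells 1 probe each had an unadjusted p under 0.05, and the test named in the study's methods called 0. All 5 endothelial differences were below 0. Tek was at -1.78 and the 2 Kdr probes at -1.71 and -0.0046 (limma, adjusted p = 0.052, 0.27 and 0.996). The log2 of the summed signal of the leukocyte markers lay between 8.90 and 10.90 in type 1 and between 8.87 and 10.27 in type 2B fibers, that of endothelium between 10.60 and 11.84 and between 10.56 and 12.03, that of connective tissue between 6.43 and 10.71 and between 5.60 and 6.94, and that of satellite cells between 9.77 and 12.93 and between 9.19 and 12.07. The endothelial sum lay close to 1 bright probe, Kdr A_55_P2094469, at 10.41 to 11.81 in type 1, which had the difference of -0.0046. The satellite cell sum lay close to Myod1, at 9.68 to 12.92 in type 1. Neither sum shows how the dimmer probes of its list, such as Tek or Pax7, differed between the types. Col3a1 was well above background in 11 of 11 type 1 and 7 of 10 type 2B fibers, and Pdgfra of fibroblasts in 0 of 21. Col1a1 was well above background in 4 of 11 and 1 of 10 and Dcn in 3 of 11 and 1 of 10. Their differences were -0.96 and -0.21 and were not called (limma, adjusted p = 0.37 and 0.92). Of the satellite cell genes, Myod1 was well above background in all fibers and Pax7 in 8 of 11 and 2 of 10, with a difference of -1.37 (limma, adjusted p = 0.15), while Myf5 was in 0 of 21. The part of such cells in the proteasome values was not tested.

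Few proteasome probes were called between slow and fast fibers, and those called were of 1 gene, Psme4. Of the 53 tested probes, 2 were called (3.77%), against 7.57% of all probes tested, and both were higher in type 2B, a direction called at 3.48% of all probes. With Bonferroni adjustment 0 were called by limma and 0 by the methods' test, against 1.43% of all, and 0 had values that did not overlap between the fibers of the types, against 1.34% of all. At an unadjusted p under 0.05 there were 5 of 53, against 18.5% of all. The median difference over the 53 probes was 0.12, that over all tested probes 0.03. With 1 mean per mouse and type the order turned, at 0.01 and 0.08, as it did without mouse 3, at 0.01 and 0.07. The difference was above 0 for 36 probes and below 0 for 17, and without taking sign its median was 0.20, against 0.34 over all tested probes and 0.27 over the 16885 that were well above background on every array. These counts and medians describe the list, and no test was made on it.

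The intervals show how much a difference could have been missed. For 37 of the 53 probes (69.8%) the 95% interval of the difference lay within 1 log2 unit, a 2-fold change, on either side of 0. The share was 40.6% over all tested probes. Among probes well above background on every array it was 71.4% of 49 proteasome probes and 58.6% of the 16885. A difference over 1 log2 unit was measured at 1 of 53 proteasome probes (1.89%), a probe of Psme4, and at 12.47% of all. The other probes did not pass the test, which does not show that they are equal in slow and fast fibers. In data simulated with the means and spreads of all tested probes, 16% of 100 probes changed by 1 log2 unit were called. Of 100 probes changed by 2 log2 units, 61% were called. No other probes were changed there, whereas 3551 were called in the data, so the adjusted threshold was stricter in the simulation. The median SE was 0.36 over all tested probes and 0.25 over the proteasome probes. These shares are therefore not the chance of calling such a change in a proteasome probe.

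**Figure D1:**
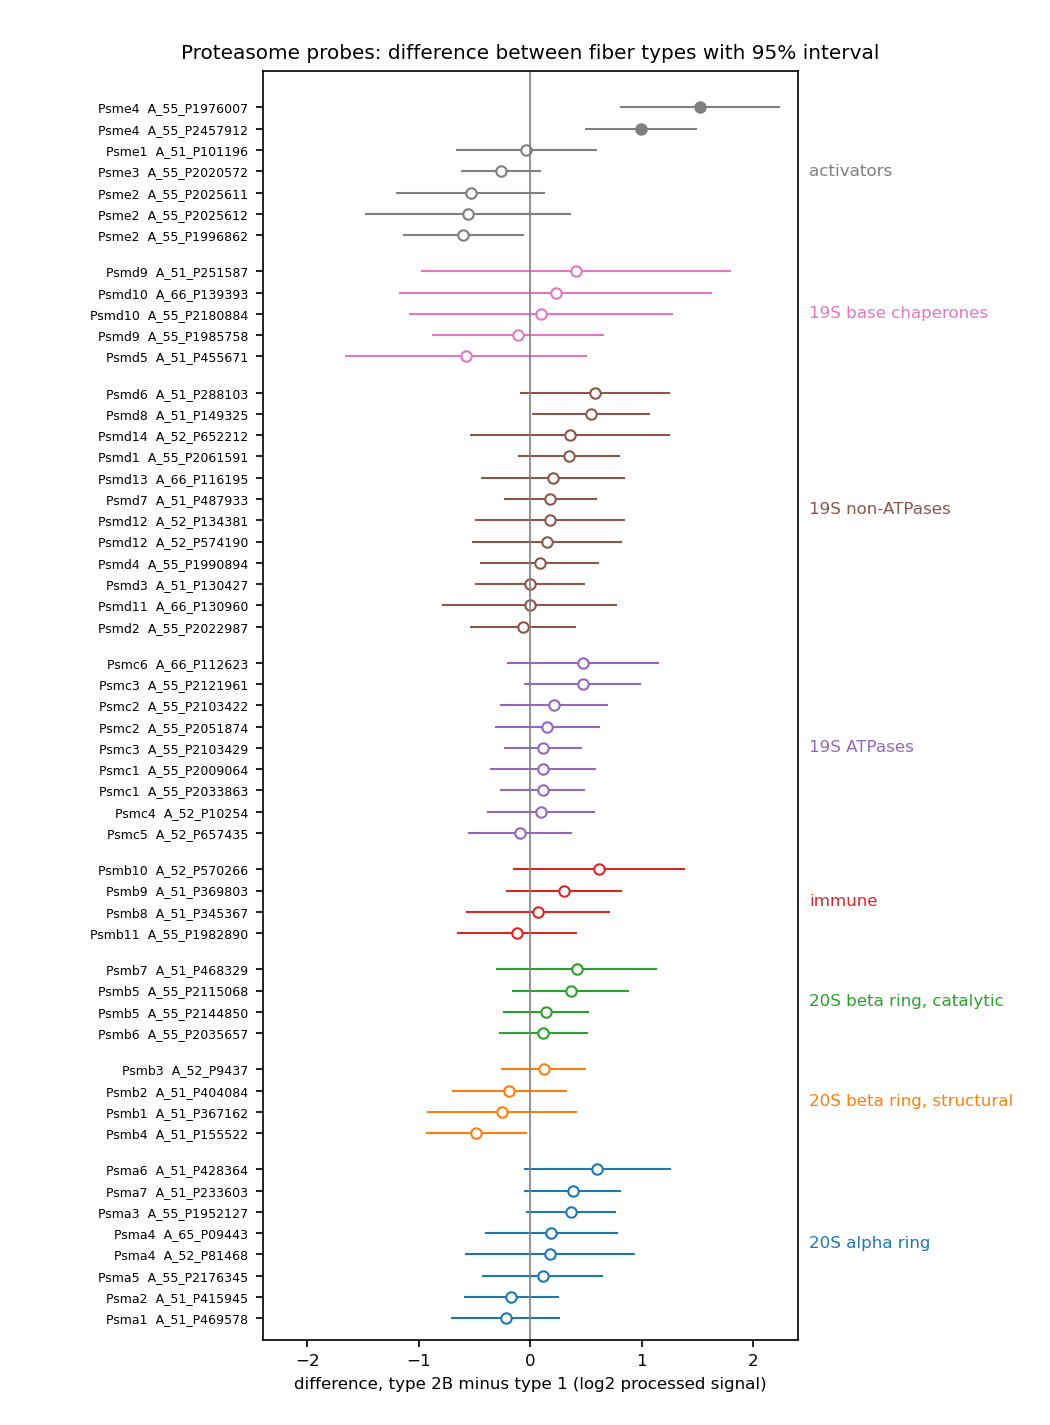
Each row is a tested proteasome probe, with the difference type 2B minus type 1 (log2 processed signal, points) and its 95% interval (lines), grouped by the role of the subunit. Filled points mark the 2 called probes, both of Psme4, with differences of 1.52 and 0.99. The other 51 points are open and lie between -0.60 and 0.62.

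The 20S core was read by 16 probes of 14 constitutive genes, Psma1 to Psma7 and Psmb1 to Psmb7, and none was called by limma (1 at an unadjusted p under 0.05, and 0 by the methods' test after Benjamini-Hochberg adjustment). Their median difference was 0.13, with 11 above and 5 below 0, and for 14 of the 16 the interval stayed within 1 log2 unit of 0. The genes of the alpha ring, which gates the entry of substrates, had a median of 0.18 over 8 probes. Psma6 had the highest difference of the ring. Its signal was lowest at 11.93, median 12.37 and highest at 14.22 in type 1, and 12.14, 13.36 and 14.12 in type 2B fibers. The type 2B range lay within that of type 1, although its median stood higher, and the difference of 0.60 (SE 0.31) was not called (limma, adjusted p = 0.32). Psma1 was at the other end. It was lowest at 9.26, median 9.79 and highest at 10.87 in type 1, and 9.07, 9.74 and 10.21 in type 2B. The medians nearly coincided, with a difference of -0.22 (SE 0.23). Psma8, the alpha subunit of the testis proteasome, was well above background in 0 of 21 fibers and was the member left untested.

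The beta subunits without a proteolytic site, Psmb1, Psmb2, Psmb3 and Psmb4, had a median difference of -0.22, the only negative median within the core, and 3 of the 4 were below 0. Psmb4, which helps to join the rings of the core as it is built, had the lowest value. In type 1 fibers it was lowest at 11.99, median 12.87 and highest at 13.43, and in type 2B fibers 11.62, 12.28 and 12.90. Only 1 of the 10 type 2B fibers was above the type 1 median, and 4 of 6 type 2B mice had means below every type 1 mouse. The mean over mice was 12.94 ± 0.33 for type 1 and 12.26 ± 0.45 for type 2B (SD over 6 mice each; exact permutation test, p = 0.017 before any adjustment for the number of probes). The difference of -0.48 (SE 0.22) was not called over the whole array (limma, adjusted p = 0.22). Psmb3 was the highest of these 4 at 0.12, with signals of 12.11, 12.68 and 13.08 (lowest, median, highest) in type 1 and 12.33, 12.72 and 13.12 in type 2B.

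The catalytic subunits are Psmb5, Psmb6 and Psmb7, which carry the chymotrypsin-like, caspase-like and trypsin-like activities. All 4 of their probes had differences above 0, with a median of 0.25, and none was called. Psmb5 had signals of 11.69, 12.98 and 13.70 in type 1 and 12.43, 13.28 and 13.83 in type 2B on A_55_P2115068, and of 12.49, 13.08 and 13.53 against 12.83, 13.21 and 13.77 on A_55_P2144850. Both probes put the type 2B median slightly higher, with differences of 0.36 (SE 0.25) and 0.14 (SE 0.18), and the types overlapped on both. Psmb6 was at 12.02, 12.80 and 13.03 in type 1 and at 12.18, 12.82 and 13.20 in type 2B, a difference of 0.12 (SE 0.19). Psmb7 spread more widely, from 12.52 to 14.90 around a median of 14.10 in type 1 and from 12.59 to 15.67 around 14.28 in type 2B, with a difference of 0.42 (SE 0.34).

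The immune beta subunits replace these catalytic subunits after interferon. Psmb8, Psmb9 and Psmb10, which take the places of Psmb5, Psmb6 and Psmb7, were all detected in at least part of the isolated fibers, and none was called by limma (0 at an unadjusted p under 0.05, and 0 by the methods' test). Psmb8 was near the floor, well above background in 8 of 11 type 1 and 6 of 10 type 2B fibers. Its signal was lowest at 4.55, median 5.26 and highest at 6.79 in type 1 and 4.15, 5.41 and 6.57 in type 2B. The types overlapped almost fully, with a difference of 0.07 (SE 0.31), whose sign changed with the processing. Psmb9 was well above background in every fiber. It was at 6.67, 7.699 and 8.33 in type 1 and at 7.27, 7.89 and 9.04 in type 2B, with a difference of 0.30 (SE 0.25). Psmb10 was above background in every fiber too, at 7.48, 9.01 and 10.44 in type 1 and at 8.21, 9.43 and 11.33 in type 2B. A single type 2B fiber, E15.3, stood above all type 1 fibers, and the difference of 0.62 (SE 0.37) was the highest of the core probes but was not called (limma, adjusted p = 0.40). Psmb11, the subunit of the thymic cortex, was well above background in 1 of 11 (S6.4) and 0 of 10 fibers, so that no level can be read from it.

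**Figure D2:**
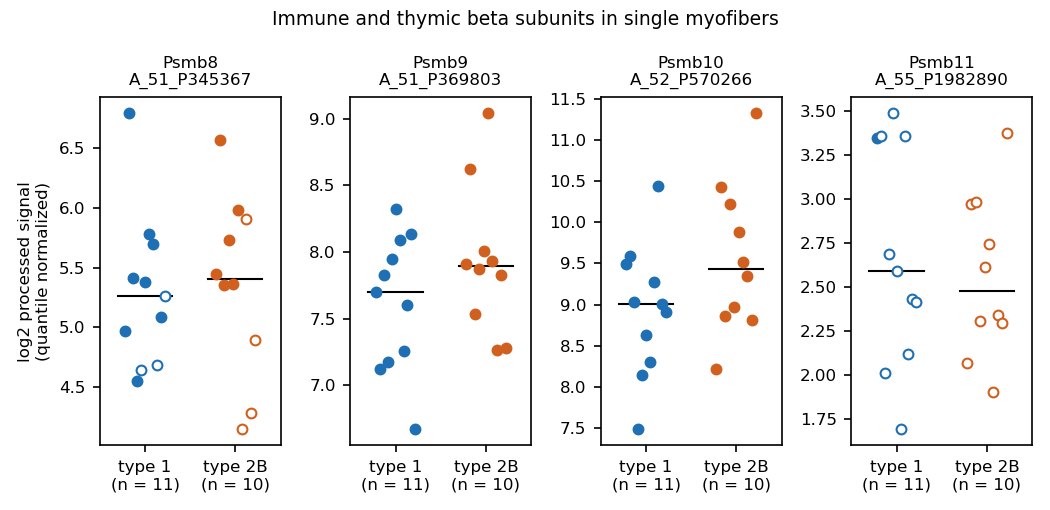
Log2 processed signal of the 3 immune subunits and of thymic Psmb11 in 11 type 1 and 10 type 2B myofibers, each panel with its own vertical axis. A point is a myofiber, filled where the probe was well above background and open where it was not, and the bar is the median. Psmb9 and Psmb10 are filled throughout, Psmb8 is mixed, and Psmb11 is open except in 1 type 1 fiber.

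Genes that act with the immune subunits were counted as well. Of the 8 tested probes of a list of interferon and class I genes, which includes Tap1, Tap2, Tapbp, B2m, Irf1 and Nlrc5, 1 was called, against 7.57% of all probes. It was B2m, the light chain of class I molecules, at -1.22 (limma, adjusted p = 0.0065). Without mouse 3 it was at -1.20 and was not called (limma, adjusted p = 0.054). The peptide loading factor Tapbp was at 1.20 and did not pass (limma, adjusted p = 0.26). The peptide transporter Tap1 was well above background in 4 of 11 and 4 of 10 fibers. On mm9 the probes of Psmb8 and Psmb9 lie on chromosome 17 with 18537 bases between them.

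The 19S cap and its base chaperones were read by 26 probes of 20 genes, and none was called by limma (1 at an unadjusted p under 0.05, and 0 by the methods' test after Benjamini-Hochberg adjustment). Their median difference was 0.15, with 20 above and 6 below 0. The 6 ATPases of the base, Psmc1 to Psmc6, are the motor of the cap. Their 9 probes had a median of 0.12, and 8 of the 9 intervals stayed within 1 log2 unit of 0. Psmc6 was the highest of them at 0.47 (SE 0.32), with signals of 7.96, 9.78 and 11.11 in type 1 and 9.31, 10.39 and 10.705 in type 2B. Psmc5 was the lowest at -0.09 (SE 0.22), with 11.88, 12.39 and 12.94 against 11.60, 12.06 and 13.09. All type 2B fibers of Psmc6 fell within the type 1 range, and the types overlapped for Psmc5.

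The non-ATPase subunits include the ubiquitin receptor Psmd4, the scaffolds Psmd1 and Psmd2 and the deubiquitinase Psmd14. Their 12 probes of 11 genes had a median difference of 0.18, and 9 were above 0. Psmd6, a subunit of the lid, was the highest, at 9.24, 9.76 and 11.82 in type 1 and 9.81, 10.83 and 11.92 in type 2B. The difference was 0.58 (SE 0.32), and the types overlapped. Psmd2 was the lowest at -0.07 (SE 0.22), with 11.96, 12.66 and 13.45 in type 1 and 11.93, 12.41 and 13.301 in type 2B. Psmd8, another lid subunit, was 1 of the 5 probes under an unadjusted p of 0.05 and is named for that reason after its values were seen. It was at 8.79, 9.28 and 10.35 in type 1 and at 9.12, 10.07 and 10.54 in type 2B, and 4 of 6 type 2B mice were above every type 1 mouse. The difference of 0.55 (SE 0.25) was not called over the array (limma, adjusted p = 0.24).

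The chaperones that assemble the base of the cap, Psmd5, Psmd9 and Psmd10, varied most from fiber to fiber. The SD among fibers of a type had a median of 1.40 over their 5 probes, against 0.47 for the ATPases and 0.44 for the catalytic subunits, all on the log2 scale. That median is Psmd10 A_55_P2180884, well above background in only 7 of 11 and 7 of 10 fibers. Psmd9 A_51_P251587 was so in 9 of 11 and 8 of 10. For Psmd5 the type 2B SD was 1.72, and 0.48 without the fiber E15.3. Psmd9 A_55_P1985758 (SD 0.85) and Psmd10 A_66_P139393 (1.66) were well above background in all fibers. Psmd5 was the lowest chaperone. In type 1 fibers it was lowest at 8.36, median 9.46 and highest at 10.14, and in type 2B fibers 7.54, 8.38 and 13.50. The type 2B fibers were low as a group except E15.3, which had the highest signal of all 21 at 13.50, while the next type 2B fiber was at 8.81. The mean without it was 8.25 ± 0.48 (SD, n = 9) in type 2B against 9.35 ± 0.61 (SD, n = 11) in type 1. With all fibers the difference was -0.58 (SE 0.52) and was not called (limma, adjusted p = 0.63), and 5 of 6 type 2B mice were below every type 1 mouse (exact permutation test on the mouse means, p = 0.022 before adjustment). Without E15.3 the fit gave -1.11 and called Psmd5 (limma, adjusted p = 0.0083), and without all fibers of its mouse, mouse 3, it gave -1.39 (adjusted p = 0.016). The fit without E15.3 was added after seeing the data, and the call rests on leaving that fiber out. Psmd9 was the highest chaperone at 0.41 (SE 0.67) on A_51_P251587, with 4.21, 6.52 and 10.24 in type 1 and 4.56, 7.04 and 10.33 in type 2B. Its other probe was at -0.11, which made Psmd9 the 1 gene, among the 10 with more than 1 tested probe, whose probes differed in sign.

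The activators held both called probes. Psme4 encodes PA200, a large single-chain activator that caps the core and is known for the turnover of acetylated histones. On A_55_P1976007 the signal was lowest at 9.68, median 10.67 and highest at 12.16 in type 1, and 10.42, 12.38 and 13.04 in type 2B. Of the 10 type 2B fibers, 9 were above the type 1 median and 6 above every type 1 fiber, and the lowest was E14.3. Averaged by mouse, type 1 gave 10.59 ± 0.50 and type 2B 12.17 ± 0.57 (SD over 6 mice each), without overlap (exact permutation test, p = 0.0022, the smallest it can give). The difference was 1.52 (SE 0.34, 95% interval 0.81 to 2.23; limma, adjusted p = 0.0053), a 2.87-fold higher signal with an interval of 1.75 to 4.70.

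The probe nearer to the start of the gene gave the same direction. On A_55_P2457912 the signal was lowest at 11.51, median 12.15 and highest at 12.98 in type 1, and 12.48, 13.13 and 14.45 in type 2B. All 10 type 2B fibers were above the type 1 median, and 8 of 11 type 1 fibers were below every type 2B fiber. The mouse means, 12.22 ± 0.22 and 13.23 ± 0.67 (SD over 6 mice each), again did not overlap (exact permutation test, p = 0.0022). The difference was 0.99 (SE 0.24, 95% interval 0.50 to 1.48; limma, adjusted p = 0.0082), or 1.99-fold with an interval of 1.42 to 2.80.

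**Figure D3:**
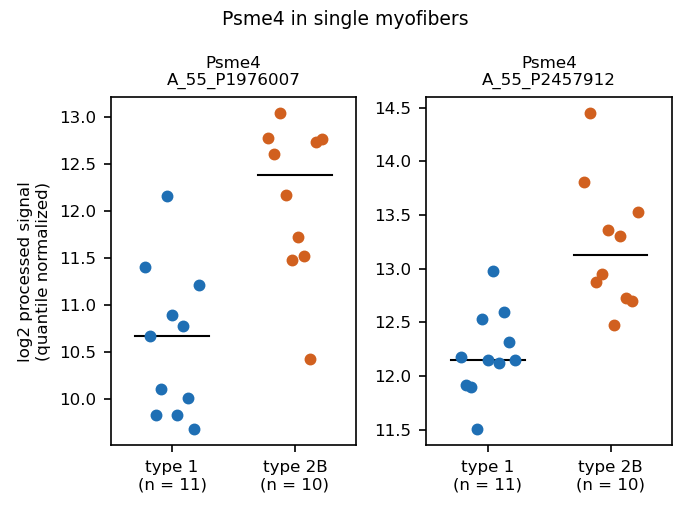
Log2 processed signal of the 2 Psme4 probes in 11 type 1 and 10 type 2B myofibers, each panel with its own vertical axis. A point is a myofiber, all well above background, and the bar is the median. The type 2B fibers lie higher on both probes, with medians of 12.38 against 10.67 and of 13.13 against 12.15, and their ranges still overlap.

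The Psme4 difference had the same sign within slides 1, 2 and 3, the glass carriers that hold several arrays, and within mice. Of the 6 slides, 4 and 6 held only type 1 fibers and 5 only type 2B fibers. They give no difference within the slide. On slide 1, with 4 fibers of each type, it was 1.54 and 1.17 on the 2 probes, on slide 2 (2 and 2 fibers) 0.66 and 1.10, and on slide 3 (2 and 2 fibers) 2.52 and 0.98. In the deposited value table the columns of the type 2B fibers E13.3 (mouse 3) and E12.5 (mouse 5) follow each other's scans, and with their mice exchanged the mouse means of Psme4 still did not overlap (exact permutation test, p = 0.0022 on both probes). In the 3 mice that gave both types, with the mice as labelled, few fibers stood behind each Psme4 difference. It was 1.48 and 1.40 in mouse 3 (3 type 1 and 4 type 2B fibers). In mouse 4 (2 and 1 fibers, with S6.4 among the type 1) it was 1.90 and 2.06. In mouse 9, with 1 fiber of each type, it was 3.36 and 0.55. With that exchange the difference was 1.47 and 1.12 in mouse 3. Without the type 1 fiber S6.4 the fitted difference was 1.60 and 0.99, and both probes remained called (limma, adjusted p = 0.0044 and 0.013). On slide 1 alone neither was called, with adjusted p of 0.12 and 0.18 by limma. Of the 2 probes, A_55_P2457912 was not called without mouse 3 (0.87, limma adjusted p = 0.13). Quantile normalization gives the arrays the same distribution, so the values are relative to the other RNA of a fiber. The number of myonuclei and the total RNA of a fiber were not measured.

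PA28 is a ring of Psme1 and Psme2 and is induced by interferon like the immune subunits. Psme1 was at 8.26, 9.48 and 10.61 in type 1 and at 8.36, 9.19 and 10.76 in type 2B. The difference of -0.03 (SE 0.30) changed sign with the block used in the fit and with the fiber or mouse left out. All 3 Psme2 probes were lower in type 2B by measured value, and none was called. On A_55_P1996862 the signal was 9.55, 10.37 and 10.50 in type 1 and 8.62, 9.31 and 10.71 in type 2B. The type 1 fibers lay close together, with an SD of 0.33 against 0.74 in type 2B, and only 2 of 10 type 2B fibers were above their median. The difference was -0.60 (SE 0.26; limma, adjusted p = 0.20), and the mouse means gave p = 0.054 by the exact permutation test (0.050 with the mice of E13.3 and E12.5 exchanged). On A_55_P2025611 it was -0.53 (SE 0.32), with 8.92, 9.93 and 11.66 against 8.66, 9.71 and 10.45. The probe on the pseudogene transcript gave -0.56 (SE 0.44), with 8.78, 10.11 and 12.56 against 8.67, 10.00 and 11.04. Whether that probe also reads Psme2 was not tested. Psme1 and Psme2 are neighbours on chromosome 14, with 6042 bases between their nearest probes on mm9. Psme3, the nuclear PA28 gamma, was at -0.26 (SE 0.17) and was not called.

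**Figure D4:**
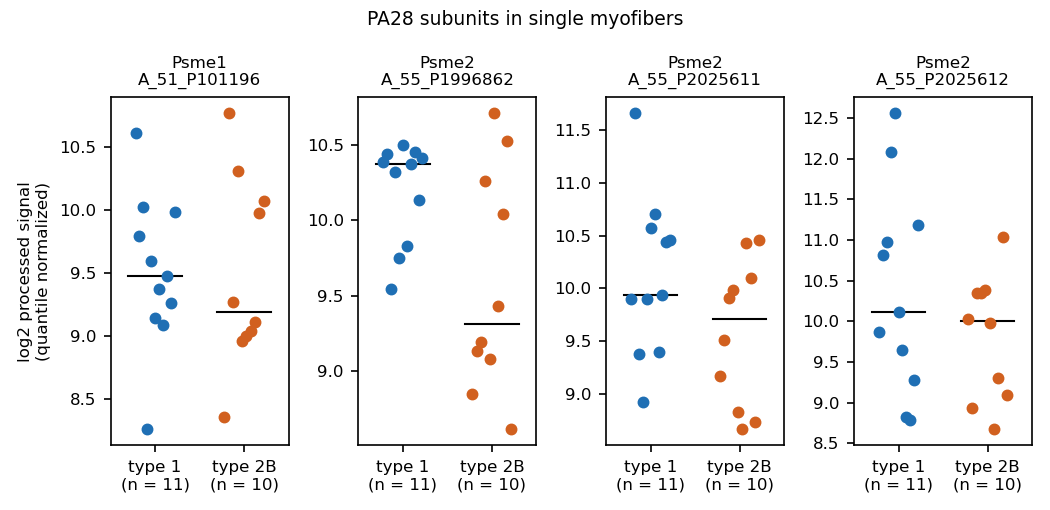
Log2 processed signal of the probe of Psme1 and the 3 probes of Psme2 in 11 type 1 and 10 type 2B myofibers, each panel with its own vertical axis. Points are myofibers, all well above background, and bars are medians. The type 1 fibers are tightly grouped on A_55_P1996862, where 2 of 10 type 2B fibers exceed their median, and the types overlap on all 4 probes.

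Fibers of a type also varied in their proteasome transcripts as a set. For each fiber the deviation of each probe from the midpoint of the type means was averaged over the set. Over the 16 core probes this mean lay between -0.38 and 0.48 in type 1 and between -0.38 and 0.42 in type 2B fibers. Over the 26 cap probes it lay between -0.37 and 0.28 and between -0.37 and 0.69. The spread within each type therefore exceeded the distance between the type medians, -0.07 and 0.07 for the core and -0.02 and -0.06 for the cap. The highest fibers were S10.10 in type 1 and E15.3 in type 2B for both sets, and both were hybridised on slide 2. Correlations were taken over probes well above background on every array and with no spot left out for an outlier flag, which were all 16 core probes, 24 of the 26 cap probes and 16143 probes of the array. After removal of the type mean, the correlation between pairs of core probes over the 21 fibers averaged 0.157, and 0.164 when the slide mean was removed too. Between pairs of cap probes it averaged 0.0999, which fell to 0.00985 within slides, and over pairs of the 16143 probes of the array it averaged 0.0204 and 0.0171. These are descriptions over probes that share the same arrays, and no test was made on them.

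**Figure D5:**
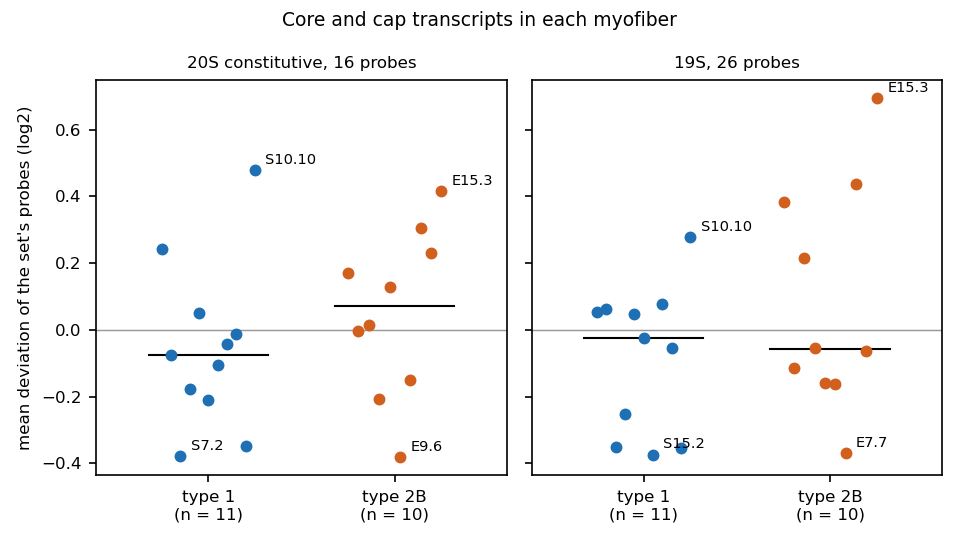
Mean deviation (log2) of the 16 constitutive core probes and of the 26 cap probes in each of 11 type 1 and 10 type 2B myofibers. A point is a myofiber, the bar is the median of the type, and the names mark the lowest and highest fiber of each type. The points of the types overlap for both sets, and E15.3 is the highest for the cap at 0.69.

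Factors around the proteasome were read by further lists. Of the 27 probes of the 20 assembly and associated factors, 0 were called by limma (7 at an unadjusted p under 0.05, against 18.5% of all probes, and 0 by the methods' test after adjustment). In this list the core assembly factor Pomp was at -0.08 and -0.19, the deubiquitinase Usp14 at -0.57 and 0.11, and Adrm1, a ubiquitin receptor, at 0.22 and 0.06. AI314180, the mouse name of Ecm29, which tethers cap and core, was at 1.07, and Nfe2l1, the transcription factor that restores proteasome genes when the proteasome is inhibited, was at -1.11 (limma, adjusted p = 0.11 and 0.24). Of 31 probes of ubiquitin genes and muscle ubiquitin ligases, 1 was called, against 7.57% of all probes. It was Fbxo21, a substrate receptor of an SCF ligase, lower in type 2B with a difference of -1.01 (limma, adjusted p = 0.013). Without mouse 3 it was at -0.94 and without mouse 4 at -0.999, and it was called in neither (limma, adjusted p = 0.067 and 0.0501). The atrophy ligases Fbxo32 (atrogin-1) and Trim63 (MuRF1) were not called, with differences of 0.05 for Fbxo32 and of 0.38 and 0.59 on the probes of Trim63.

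The promoters were scanned for TGACNNNGC, the core letters bound by Nfe2l1 and its relatives, on both strands, in RefSeq windows of GRCm38.p6 from 250 bases before to 50 bases after the start of a gene. Windows were on hand for 36 of the member genes, and 6 of their 39 windows (15.4%) held the letters, against 12.4% of all 32851 windows. They belong to Psmb5, Psmb6, Psmc6, Psmd9, Psmd12 and Psme4. The window of Psme4 is shown because it was the called gene, with the match in capitals, here on the opposite strand and starting 7 bases before the gene start:
Psme4, chr11:30771758-30771786, plus strand: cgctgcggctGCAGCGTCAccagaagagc
The match is a description of letters, and binding was not measured.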

How the data were processed

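RNA of 21 single myofibers was extracted, amplified, labeled with Cy3 and hybridized, 1 fiber per single-colour Agilent array. The authors deposited the scanner intensity of every spot from Agilent Feature Extraction 10.7.3.1, background-subtracted and corrected within the array but not between arrays, with mm9 probe positions. They also deposited a table of quantile normalized intensity for 3687 features, which holds 1 proteasome probe, Psma4 A_65_P09443, and served as an alternative.

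Processed intensity was quantile normalized between arrays with limma 3.58.1 (R 4.3.3) and expressed as log2, here computed from the deposited intensity. Control spots and spots with an outlier flag were left out, and spots of the same probe name were averaged. A probe was tested when the flag for a positive and significant signal was set on 50% or more of the arrays of either type. The fit used duplicateCorrelation with mouse as block (consensus correlation -0.017) and eBayes. Spots without that flag kept their value, whereas the methods of the study set them to missing. These methods name a t-test with permutation and Bonferroni adjustment. A Welch test on the log2 values is called the methods' test here. Steps were tested on simulated data, and drawing used Python 3.11.15 with matplotlib 3.10.9.

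Samples were grouped by the labels, which number the replicates. Same-numbered fibers of the types were not paired: over 10 pairs their deviations correlated with a median of -0.03 across probes. The members, gene lists and tests were chosen with earlier results of these data known. Values are given for called probes, for Psmb5 to Psmb10, Psme1 and Psme2, and for the highest and lowest probe of each class. Psmd8 and the uncalled genes of the other lists were named after their values were seen. Alternatives changed the normalization, background correction (normexp, offset 50), filter, blocks, test, threshold, fibers and mice. Slides 2 and 3 alone, the fit without E15.3, the exchange of 2 mice, Psmd8 and the lists under each alternative were added after seeing the data. One gene of the interferon and class I list is not reported here.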

Additional observations from a re-analysis of the deposited data

Results flagged for a closer look

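Of the 25 named probes, 1 had a type 2B myofiber far from the other 9. Psmd5 read 13.50 in E15.3, while the next fiber of its type read 8.81, a gap of 0.79 of the whole range, above the 95% critical value of Dixon's test for 10 samples. Chance marks about 1 in 20 such groups. The cause was not tested.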

How the results depend on the processing

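Both Psme4 probes were called with the 75th percentile, normexp, both filters on dim probes, no mouse term, slide or scan day as a block, 2 mice exchanged, the methods' test, and by limma without S6.4. Over mice left out in turn the count of probes stayed at 2, the differences ranged from 1.33 to 1.60 (A_55_P1976007) and from 0.87 to 1.09 (A_55_P2457912), and the count of genes ranged from 1 to 2. Without mouse 3, Psmd5 was called (-1.39) and A_55_P2457912 was not. Without E15.3 there were 3 probes and 2 genes. With replicate block both Psme4 probes remained called (1.59 and 1.00, adjusted p = 0.031 and 0.039), and the pairing changed no other call of a proteasome probe. The count was 1 with spots without the flag missing (A_55_P2457912 at 0.91, adjusted p = 0.058), with mouse as a fixed block (A_55_P1976007 at 1.90, adjusted p = 0.090) and with 1 mean per mouse and type (A_55_P2457912 at 1.01, adjusted p = 0.069). It was 0 with Bonferroni (differences of 1.52 and 0.99) and on slide 1 alone (1.54 and 1.17; 0 genes), which has 8 arrays. On slides 2 and 3, A_55_P1976007 moved to 0.66 and 2.52. On slide 1 the class medians moved to -0.69 (structural beta), 0.34 (ATPases) and -0.88 (chaperones). The cause was not tested.

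Other moves of class medians were smaller than the spread between fibers. The larger ones were the chaperones to -0.35 (mouse means), -0.17 (scan day) and 0.39 (mouse block), the alpha ring to 0.44, the catalytic subunits to 0.47 and all proteasome probes to 0.29 (mouse block), and the activators to -0.0012 (75th percentile), where the median of all array probes was 0.09. Over mice left out the medians ranged from 0.01 to 0.18 over all probes, 0.10 to 0.27 in the alpha ring, -0.33 to -0.13 in the structural and 0.10 to 0.33 in the catalytic subunits, 0.04 to 0.26 in the immune class, -0.0043 to 0.22 in the ATPases, 0.06 to 0.26 in the non-ATPases, -0.45 to 0.27 in the chaperones and -0.33 to -0.15 in the activators.

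Uncalled differences near 0 changed sign. With the 75th percentile these were Psmb8 (-0.018), Psmb11 (0.20), Psmc5 (0.021) and Psmd2 (0.062), with spots missing Psmb8 (-0.38) and Psmb11 (0.011), with the mouse block Psmd2 (0.17), Psmd5 (0.045) and Psme1 (0.40), and with the replicate block Psmd2 (0.024) and Psme1 (0.024). Psmb6 (-0.025) changed with mouse means, Psmc5 (0.043) with the slide block, Psmb8 (-0.0045) with the scan day and Psme1 (0.075) without S6.4. On slide 1 these were Psmb7 (-0.043), Psmb11 (0.064), Psmc5 (0.21), Psmd2 (0.25) and Psmd9 (-0.88). Over mice left out, Psmb3 from -0.042 to 0.18, Psmb6 from -0.076 to 0.20, Psmb8 from -0.17 to 0.21, Psmd2 from -0.19 to 0.021, Psmd9 from -0.25 to 0.69 and Psme1 from -0.15 to 0.02 crossed 0.

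Of the other pathway lists 2 probes were called, B2m and Fbxo21, 1 with the mouse block (neither of them) and 0 to 2 without a mouse, with 0 without mouse 3. Of the cell type markers 3 were called, 1 with the mouse block or on slide 1 and 1 to 4 without a mouse, with 1 without mouse 3. Of the myosins 4 were called, 2 with spots missing or on slide 1 and 2 to 4 without a mouse. Over the array 3551 probes were called, against 2299 with spots missing, 1386 with the mouse block, 1411 on slide 1 and 2335 without mouse 3, and with spots missing the median of all probes moved from 0.03 to -0.09. The deposited value table gave Psma4 0.19, as here. For 19 of the 21 arrays its column followed the array's own scan best, and those of E13.3 and E12.5 followed each other's (r = 0.989 and 0.997, against 0.934 and 0.937 with their own). With their mice exchanged the Psme4 differences were 1.53 and 1.01, the mouse means gave p = 0.013 for Psmb4 and for Psmd5 (exact permutation test), and 3 in place of 4 type 2B mice were above every type 1 mouse for Psmd8. Signal near background limits Psmb8, Psmb11 and single probes of Psmd9 and Psmd10.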
